A study of Mus musculus with 6 samples.

Results

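Amino acid, sugar and monocarboxylate transporters of the solute carrier (SLC) families were examined in cultured mouse pancreatic fibroblasts. Members were taken by gene symbol alone, as every gene of the deposited count table whose name belongs to Slc families 1, 2, 3, 5, 6, 7, 16, 36, 38 or 43, and 46 of 14831 listed genes are described here. Of these, 44 are transporter genes: 30 in the amino acid families, 9 in the sugar families and 5 in the monocarboxylate family. The other 2 matched only through their names. Slc7a6os is a neighbour of Slc7a6 that encodes no transporter, and Slc2a4rg-ps is a pseudogene. Slc2a3, Slc2a4, Slc16a3, Slc16a7, Slc16a8, Slc1a1, Slc1a2 and Slc38a4 were not analysed here.

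RNAseq was performed on polyadenylated RNA from 6 wells of immortalized pancreatic fibroblasts of mixed strain, 3 labelled WT and 3 labelled Gli2/Gli3 KO, all grown to confluence in DMEM with calf serum and antibiotics. Gli2 and Gli3 encode transcription factors of the Hedgehog (HH) pathway, and the comparison asks which transcripts differ when both are deleted from fibroblasts. The study describes its lines as outgrowths from the adult pancreas of mice with floxed Gli alleles, which were immortalized and then infected with viruses. Both groups had the floxed alleles and an adenovirus for eGFP. The controls also received a dsRed lentivirus and the KO cells a Cre adenovirus. The deletion, the difference in the second virus and any other difference between the lines behind the labels cannot be told apart. The replicates were wells of a line and not independently made lines, so the p values below measure the spread between wells.

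The label check, made on RNA counts, went against the labels. By the study's methods, infected cells had been checked for recombination with qPCR and western blot, and those results are not reported here. Gli2 had 809, 944 and 868 counts under the WT label and 1932, 2316 and 1926 under the KO label, and Gli3 had 392, 416 and 398 against 1434, 1637 and 1404. Both targeted genes were higher in every library labelled KO, although a count over a whole gene also takes in exons outside a floxed segment. Each group is therefore named by its label, every difference is given as labelled KO relative to labelled WT, and each direction rests on labels that these counts go against. Fibroblast markers dominated all 6 libraries, with 9 of 11 present in the table and a summed level of 44824 to 47238 CPM (counts scaled to the library's size with TMM factors) in the libraries labelled WT and 36791 to 38540 in those labelled KO. Fap and Pdpn were not among them, and Thy1 had at most 4 counts in the libraries labelled WT and 9 to 19 in those labelled KO. Col1a1 (15982 and 16113 CPM on average) and Col1a2 (13233 and 11589) made up most of both sums. At adjusted p under 0.05 and at least 1.5-fold, 4 of the 8 tested were lower under the KO label (50%, against 6.1% of all genes). These were Dcn, Col3a1, Pdgfra and Pdgfrb (log2 fold changes -1.55, -0.94, -0.90 and -0.66). By the same rule 1 was higher, S100a4 (1.67). Summed epithelial markers were at 12.8 to 13.8 CPM and 29.5 to 30.4 CPM, from 4 of 9 markers. Sox9 made up most of the first sum (8.51 CPM on average, and 6.03 under the KO label), Krt7 most of the second (23.1 CPM, and 4.38 under the WT label), and Krt8 was at 0 to 2 and 7 to 12 counts. Of the acinar and islet markers, only Cela1 was present (7.36 to 8.84 and 13.6 to 15.4 CPM), macrophage and leukocyte markers (3 of 8) summed to 39.5 to 45.5 and 38.4 to 40.1 CPM, and of the endothelial markers only Vwf was present (0.866 to 1.60 and 0.763 to 0.939 CPM). Lyz2 made up most of the leukocyte sums (41.1 and 36.6 CPM on average), with Cd68 at 1.17 and 1.55 and Csf1r at 1.00 and 1.07. Ptprc, Adgre1 and Itgam were not present. The part of these markers in the transporter results was not tested. In bulk RNA, fewer cells of a type and less RNA per cell cannot be told apart.

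SLC transporters carry nutrients across membranes, and several work as exchangers, so that the uptake of a substrate is paid for with the release of another. Slc7 light chains such as LAT1 (Slc7a5) and xCT (Slc7a11) reach the cell surface bound to a heavy chain of the Slc3 family, and monocarboxylate transporters (MCTs) likewise need an accessory glycoprotein, basigin or embigin. Fibroblasts of the pancreas are known for exchanging amino acids and lactate with neighbouring cells in tumors, and the transcription factor ATF4 raises many amino acid transporters and synthesis enzymes when amino acids run short.

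Promoter sequences of the members were read because several transporters are textbook targets of ATF4, of the antioxidant factor NRF2 or of MYC. RefSeq windows on GRCm38.p6, each running from 250 bases before to 50 bases after an annotated start, were found for 34 of the 46 members (44 windows). No window was given for Slc7a5, Slc1a5, Slc7a2, Slc6a6, Slc6a8, Slc7a3, Slc7a4, Slc43a3, Slc38a1, Slc6a2, Slc2a4rg-ps and Slc16a13. The 4 windows printed here are those of the genes that hold the ATF4 and C/EBP response element TGATGNAAN (for Slc7a7, 1 of its 2 overlapping windows), and that of Slc43a1, which shared the highest log2 fold change of the amino acid genes with Slc1a3 and holds the E-box CACGTG and the antioxidant response element TGACNNNGC. Capitals mark the matches, on either strand, and each sequence reads 5′ to 3′ on the strand of its gene.

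Slc7a11, chr3:50443564-50443863 (minus strand): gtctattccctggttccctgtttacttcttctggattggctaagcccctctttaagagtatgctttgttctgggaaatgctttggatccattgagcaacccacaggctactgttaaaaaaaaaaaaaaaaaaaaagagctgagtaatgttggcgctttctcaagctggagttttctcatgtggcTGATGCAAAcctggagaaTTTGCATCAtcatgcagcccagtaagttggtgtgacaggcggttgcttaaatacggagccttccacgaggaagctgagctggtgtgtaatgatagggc

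Slc1a4, chr11:20332664-20332963 (minus strand): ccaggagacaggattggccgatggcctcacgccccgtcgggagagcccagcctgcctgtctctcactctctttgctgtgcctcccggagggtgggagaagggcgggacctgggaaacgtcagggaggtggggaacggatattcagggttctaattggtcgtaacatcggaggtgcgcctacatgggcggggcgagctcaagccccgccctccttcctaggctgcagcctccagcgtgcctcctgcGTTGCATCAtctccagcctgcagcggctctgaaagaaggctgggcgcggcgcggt

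Slc7a7, chr14:54417895-54418194 (minus strand): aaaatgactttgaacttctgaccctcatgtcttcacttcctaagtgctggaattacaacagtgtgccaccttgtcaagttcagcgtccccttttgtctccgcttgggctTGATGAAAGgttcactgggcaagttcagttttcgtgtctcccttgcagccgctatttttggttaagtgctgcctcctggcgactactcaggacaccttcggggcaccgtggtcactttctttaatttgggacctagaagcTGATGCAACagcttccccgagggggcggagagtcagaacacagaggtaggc

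Slc43a1, chr2:84840073-84840372 (plus strand): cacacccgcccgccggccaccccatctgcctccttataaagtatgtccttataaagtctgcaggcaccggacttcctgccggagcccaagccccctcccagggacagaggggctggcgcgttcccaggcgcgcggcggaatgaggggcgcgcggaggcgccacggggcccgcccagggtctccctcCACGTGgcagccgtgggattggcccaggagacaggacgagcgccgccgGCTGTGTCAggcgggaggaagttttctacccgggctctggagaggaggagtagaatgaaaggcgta

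In Slc7a11, the ATF4 and C/EBP element was found on both strands, 66 and 48 bases before the start, and in Slc1a4 once, 5 bases before it. The element stood in 4 of the 44 member windows (9.09%), against 3.95% of all 32851 RefSeq windows of the same length. The E-box was in 5 member windows (11.4%, against 7.15% of all windows) and the antioxidant element in 9 (20.5%, against 12.4%). The GLI site GACCACCCA was in 0 of 44 member windows and in 0.253% of all windows. No match overlapped another in the windows shown, while in Slc36a1 and in Slc16a1 an E-box and an antioxidant element shared bases. Some windows of a gene overlap, so that a match in Slc7a6 and another in Slc7a7 were counted in both of its windows. These matches describe letters, and whether a factor binds there was not measured. The genes with an ATF4 element differed from each other in the RNA: Slc7a11 rose 2.79-fold in the libraries labelled KO, Slc1a4 was 1.39-fold higher, and Slc7a7 had a log2 fold change of 0.00 (95% interval -0.11 to 0.11).

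Across all families, the test called 14 of 43 transporter genes (32.6%), of which 11 were higher and 3 lower under the KO label. A gene was counted when its adjusted p was under 0.05 and its change at least 1.5-fold. The same rule called 17.7% of all 14289 genes tested, 11.6% higher and 6.1% lower. Without the fold limit, 29 of 43 transporter genes passed, 21 higher and 8 lower, against 58.7% of all genes (29.9% higher and 28.8% lower). The CPM values of the groups did not overlap for 29 of 43 members, 21 higher and 8 lower, against 64.2% of all genes (32.9% higher and 31.3% lower). With both directions pooled, the members' share by these looser rules lay close to the background. By direction, 48.8% of the members were higher and 18.6% lower by either rule, above and below the shares of all genes, and none of these differences in share was tested. The median log2 fold change of the members was 0.09, against 0.00197 over all genes, and the median of its size was 0.36 against 0.22. Slc7a8 was not tested, since it had 1, 4 and 4 counts under the WT label and 7, 14 and 8 under the KO label. Slc6a2 and Slc2a13 passed the count filter only through the group where they were high, so their calls, which are among the 14, are given as a description. Slc7a6os (log2 fold change 0.22) and Slc2a4rg-ps (-0.14) were not called.

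Levels were compared between genes as CPM per kilobase of annotated exons. In the amino acid families Slc38a2 (SNAT2, sodium-coupled uptake of small neutral amino acids) had the highest level, 86.2 ± 2.00 CPM per kilobase (SD, n = 3) in the libraries labelled WT and 89.4 ± 0.836 in those labelled KO. Slc3a2, the heavy chain 4F2hc or CD98, was at 59.2 ± 2.18 and 70.8 ± 1.83, and Slc38a10, a family relative of SNAT2, was at 59.6 ± 2.63 and 62.2 ± 2.12. In the libraries labelled WT, the levels of Slc3a2 and Slc38a10 lay within their spread of each other, and in those labelled KO Slc3a2 was above Slc38a10 by more than both SDs. Over all 6 libraries, the mean was 65.0 for Slc3a2 and 60.9 for Slc38a10. The order of these 6-library means turned with the length of the longest transcript, to 81.5 for Slc3a2 and 85.4 for Slc38a10. Among sugar transporters Slc2a1 (GLUT1, basal glucose uptake) led with 13.3 ± 0.567 and 15.8 ± 0.329 CPM per kilobase, above Slc5a3 (6.34 ± 1.16 and 6.78 ± 0.912) and Slc2a8 (6.17 ± 0.285 and 5.86 ± 0.305), which did not differ from each other beyond their spread. In the monocarboxylate family Slc16a1 (MCT1, the proton-coupled lactate and pyruvate transporter) was at 19.8 ± 0.895 and 21.2 ± 0.147, and Slc16a4 (3.55 ± 0.271 and 4.91 ± 0.123) and Slc16a9 (1.88 ± 0.0252 and 2.69 ± 0.146) followed. The 3 leading genes of each family stayed the same when the length of the longest transcript was used or levels were scaled to a fixed sum of CPM per kilobase.

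**Figure D1:**
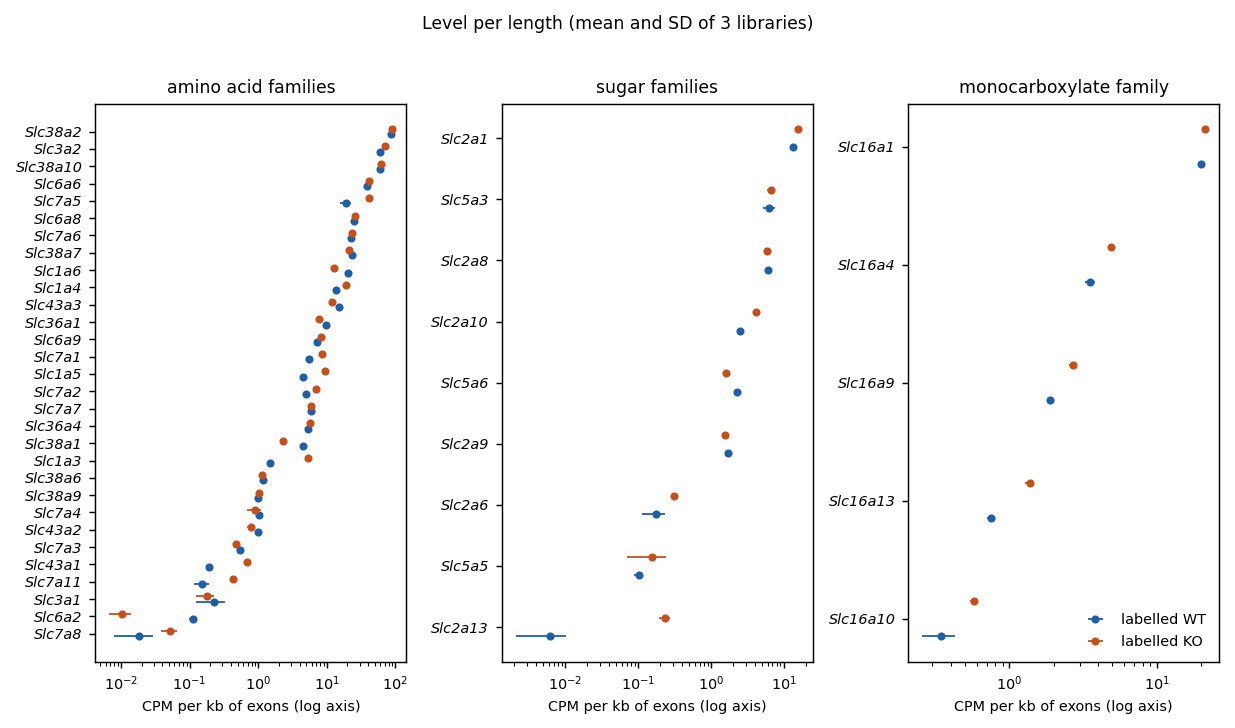
Level of each of the 44 transporter genes as CPM per kilobase of exons on a log axis, by family, in the libraries labelled WT (blue) and labelled KO (orange), as mean and SD of 3 libraries. Slc38a2 leads the amino acid families at 86.2 and 89.4, Slc2a1 the sugar families at 13.3 and 15.8, and Slc16a1 the monocarboxylate family at 19.8 and 21.2.

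The summed level was slightly higher in the libraries labelled KO in every family. Summed over the amino acid families it was 437 ± 9.37 CPM per kilobase in the libraries labelled WT and 484 ± 7.51 in those labelled KO (a ratio of 1.11), over the sugar families 32.6 ± 0.357 and 36.6 ± 1.15 (1.12), and over the 5 monocarboxylate genes 26.3 ± 0.989 and 30.7 ± 0.232 (1.17). The composition shifted more for single genes: Slc7a5 made up 4.30% of the summed amino acid level in the libraries labelled WT and 8.37% in those labelled KO, whereas Slc1a6 made up 4.65% and 2.59%. Slc2a1 held 40.8% and 43.2% of the sugar sum and Slc16a1 75.2% and 68.9% of the monocarboxylate sum. These sums and shares are descriptions and were not tested.

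Of the 29 amino acid transporter genes tested, 6 rose (20.7%, against 11.6% of all genes) and 3 fell (10.3%, against 6.1%) in the libraries labelled KO. The median log2 fold change of the 29 genes was 0.06, and the differences in share were not tested. The genes that rose were Slc43a1, Slc1a3, Slc7a11, Slc7a5, Slc1a5 and Slc7a1, and those that fell were Slc1a6, Slc38a1 and Slc6a2. Another 10 passed the adjusted p without reaching 1.5-fold, and 10 did not pass. Without the fold limit 12 were higher (41.4%, against 29.9% of all genes) and 7 lower (24.1%, against 28.8%).

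The large neutral amino acid carriers differed in direction, with Slc43a1 and Slc7a5 higher and Slc43a2 lower. Slc43a1 (LAT3, facilitated transport of leucine and other large neutral amino acids) had 35, 37 and 33 counts under the WT label and 132, 158 and 136 under the KO label. All libraries labelled KO were above all labelled WT, and the log2 fold change was 1.83 (SE 0.13, adjusted p = 1.35e-07, quasi-likelihood test of edgeR, Benjamini-Hochberg adjusted, as for every adjusted p below). Slc7a5 (LAT1, which exchanges intracellular glutamine for leucine) had 2644, 2181 and 1915 counts under the WT label and 5642, 6179 and 4735 under the KO label. Its level rose 2.15-fold (log2 fold change 1.11, SE 0.09, adjusted p = 4.31e-07), and the groups did not overlap. In CPM, labelled WT library 1 (84.4) was above the next library labelled WT (65.1). The log2 fold change of Slc7a5 was 1.26 without that library. Slc43a2 (LAT4), of the same family as LAT3, went the other way, with 334, 330 and 308 counts against 312, 316 and 236. Its raw counts overlapped, but its CPM values did not, and its log2 fold change was -0.36 (SE 0.09, adjusted p = 0.00354), which is under the fold limit. Slc43a3, a neighbour of Slc43a1 on chromosome 2 that transports purine nucleobases, also had a negative log2 fold change, -0.34 (adjusted p = 2.70e-05), although the gene bodies lie 73.0 kb apart on the same strand.

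The heavy chain of LAT1 and xCT had a smaller fold change than either light chain, a difference that was not tested. Slc3a2 had 6818, 6878 and 6491 counts under the WT label and 9096, 10349 and 8062 under the KO label. The groups did not overlap, and the log2 fold change was 0.26 (SE 0.03, adjusted p = 2.98e-05), a 1.20-fold difference under the fold limit. The other heavy chain, Slc3a1 (rBAT, the partner of the renal cystine transporter), was near the limit of detection with 10, 15 and 25 counts against 16, 11 and 16. Its groups overlapped, its 95% interval ran from -1.19 to 0.40 on the log2 scale, and 26.5% of its exon length overlaps Prepl on the opposite strand.

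Among the cystine and glutamate carriers, Slc7a11 and Slc1a3 rose and Slc1a6 fell. Slc7a11 (xCT, which imports cystine for glutathione in exchange for glutamate) had 85, 58 and 62 counts under the WT label and 217, 221 and 211 under the KO label. The log2 fold change was 1.48 (SE 0.15, adjusted p = 2.63e-06), and the lowest library labelled KO was above the highest labelled WT, which was again labelled WT library 1. Slc1a3 (GLAST or EAAT1, sodium-coupled uptake of glutamate and aspartate) had 362, 443 and 425 counts under the WT label and 1636, 1867 and 1477 under the KO label, and rose 3.56-fold (log2 fold change 1.83, SE 0.05, adjusted p = 2.52e-11). Its spread was small next to the difference, 12.7 ± 0.993 CPM against 45.2 ± 0.826 CPM (SD, n = 3). Slc1a6 (EAAT4), a glutamate carrier best known from Purkinje neurons, fell, with 1369, 1515 and 1353 counts under the WT label and 976, 1123 and 872 under the KO label (log2 fold change -0.70, SE 0.04, adjusted p = 2.18e-08). The carriers of the same substrate thus differed in direction, and Slc1a6 had the higher level per length in both groups.

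Glutamine and small neutral amino acid carriers were split. Slc1a5 (ASCT2, sodium-dependent exchange of glutamine) had 640, 637 and 563 counts under the WT label and 1382, 1745 and 1269 under the KO label, without overlap (log2 fold change 1.07, SE 0.06, adjusted p = 6.96e-09). Slc38a1 (SNAT1, net uptake of glutamine) had 2348, 2591 and 2589 counts under the WT label and 1451, 1612 and 1254 under the KO label. It was 1.98-fold lower (log2 fold change -0.99, SE 0.04, adjusted p = 8.33e-10), with every library labelled KO below every library labelled WT. Its neighbour Slc38a2, 44.5 kb away on chromosome 15 and on the same strand, had 23502, 25242 and 24973 counts against 27952, 32608 and 26318. Its CPM groups did not overlap, but the difference did not pass the test, with a log2 fold change of 0.05 and a 95% interval from -0.01 to 0.11. Slc38a10 had 12523, 12805 and 11680 counts against 14687, 16388 and 12858 and also did not pass (0.06, -0.02 to 0.14). Over the alternative tests and settings, the adjusted p of Slc38a2 ran from 0.00528 to 0.312 and that of Slc38a10 from 0.0180 to 0.565. Slc1a4 (ASCT1, exchange of serine, alanine and threonine) was higher under the fold limit (log2 fold change 0.47, adjusted p = 3.11e-06).

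Of the cationic amino acid transporters, Slc7a1 (CAT1, uptake of arginine and lysine) rose. It had 2206, 2080 and 1930 counts under the WT label and 3552, 4159 and 3240 under the KO label (log2 fold change 0.63, SE 0.05, adjusted p = 2.28e-07), close to the limit of 1.5-fold and without overlap in CPM. Slc7a2 (CAT2) was higher by less than that (0.49, adjusted p = 1.52e-05), and the log2 fold change of Slc7a3 (CAT3) was -0.19 with a 95% interval from -0.50 to 0.12. The y+L carriers Slc7a6 and Slc7a7, which export cationic amino acids in exchange for neutral ones, did not pass.

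The remaining amino acid genes belong to the lysosome or carry other substrates. Slc36a1 (PAT1, proton-coupled export from lysosomes) and Slc38a7 (SNAT7, lysosomal glutamine export) were lower under the fold limit, at log2 fold changes of -0.35 and -0.14, and Slc38a9, the lysosomal arginine sensor of mTORC1, did not pass (0.07, 95% interval -0.06 to 0.20). Slc6a6 (taurine), Slc6a9 (GlyT1, glycine) and Slc36a4 were higher by 0.09, 0.20 and 0.13 on the log2 scale, all under the fold limit. Over the alternative tests and settings, their adjusted p reached 0.199, 0.0524 and 0.0664, so these passes did not hold in all of them. The CPM groups of Slc6a9 overlapped, and 27.8% of its exon length overlaps Ccdc24 on the opposite strand. Slc6a8, the creatine transporter, did not pass (0.05, 95% interval -0.03 to 0.12). Slc6a2 carries noradrenaline rather than an amino acid. It had 25, 21 and 22 counts under the WT label and 2, 2 and 3 under the KO label, so it was at least 8.54-fold lower against a floor of 3 counts per library (adjusted p = 6.31e-06), at a level where few reads decide the value. Slc6a2 passed the count filter only through the libraries labelled WT, so its call is given as a description.

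**Figure D2:**
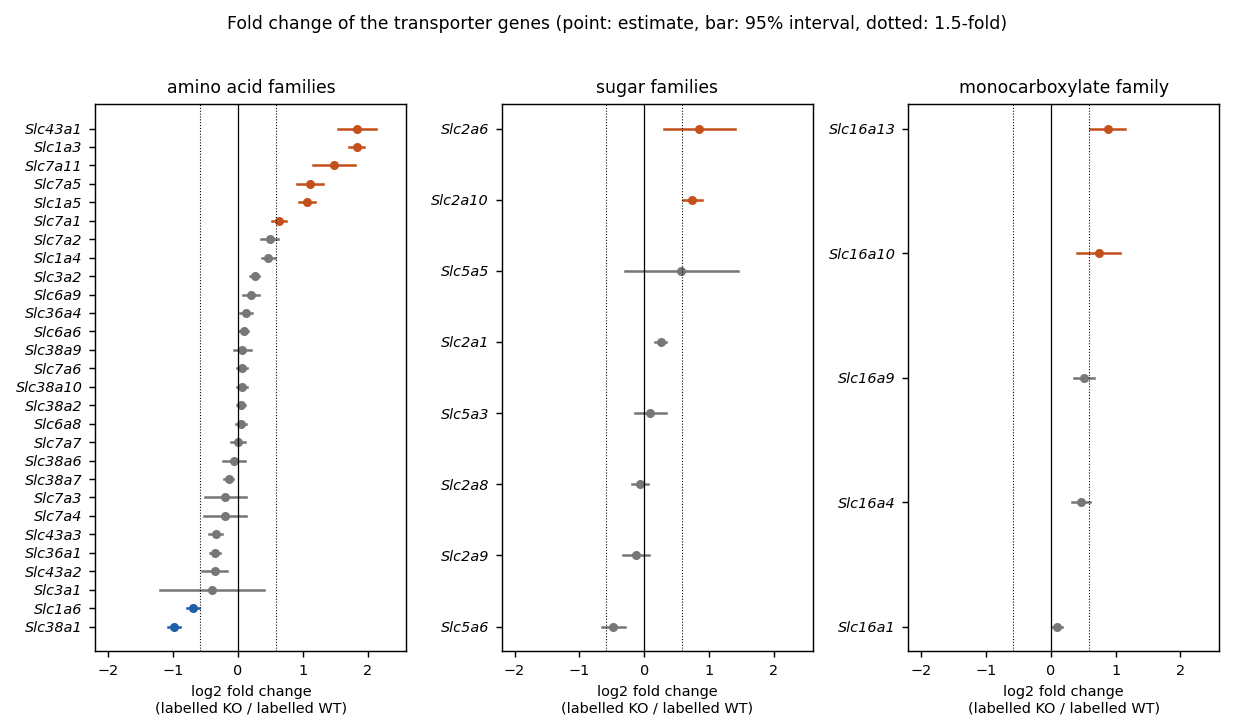
Log2 fold change (labelled KO over labelled WT) of the transporter genes by family, with the 95% interval of edgeR's fit as a bar, genes called higher in orange, called lower in blue and the others in grey, and dotted lines at 1.5-fold. Slc43a1 and Slc1a3 stand highest at 1.83 and Slc38a1 lowest at -0.99, and Slc6a2 and Slc2a13, whose folds are bounds, are left out.

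Of the 9 sugar transporter genes, 3 rose (33.3%, against 11.6% of all genes) and 0 fell (against 6.1%). Their median log2 fold change was 0.25, and the differences in share were not tested. Without the fold limit 4 were higher (44.4%, against 29.9% of all genes) and 1 lower (11.1%, against 28.8%), the latter Slc5a6. Slc2a1 was not among the 3. It had 1526, 1555 and 1428 counts under the WT label and 1936, 2287 and 1874 under the KO label, and its CPM groups did not overlap, but the log2 fold change was 0.25 (SE 0.04, adjusted p = 1.58e-04), a 1.19-fold difference.

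Slc2a10 (GLUT10, the gene mutated in arterial tortuosity syndrome) had 274, 307 and 294 counts under the WT label and 507, 662 and 496 under the KO label. It rose 1.67-fold (log2 fold change 0.74, SE 0.07, adjusted p = 8.88e-07), and its share of the summed sugar level went from 7.76% to 11.5%. Slc2a13 (HMIT, proton-coupled uptake of myo-inositol) had 1, 3 and 1 counts under the WT label and 71, 96 and 54 under the KO label. It was at least 21.3-fold higher against a floor of 3 counts per library (adjusted p = 8.65e-08) and was close to absent from the libraries labelled WT. Slc2a13 passed the count filter only through the libraries labelled KO, so its call is given as a description. Slc2a6 (GLUT6, a lysosomal hexose transporter) had 24, 18 and 12 counts against 34, 40 and 37 (log2 fold change 0.85, SE 0.25, adjusted p = 0.0114). That call rested on labelled WT library 3, the lowest: without it the log2 fold change was 0.64 and the adjusted p 0.0529.

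The other inositol carrier, Slc5a3 (SMIT1, sodium-coupled and raised by hypertonic medium), had 1838, 2199 and 2656 counts under the WT label and 2337, 2950 and 2810 under the KO label. In CPM it ranged from 58.6 to 83.2 and from 66.0 to 85.1, so the groups overlapped widely, and its 95% interval ran from -0.14 to 0.33. Slc2a8 (GLUT8, an intracellular hexose transporter) had 647, 666 and 601 counts against 643, 830 and 604 and did not pass (log2 fold change -0.07, 95% interval -0.20 to 0.05). Slc2a9 (GLUT9, urate) and Slc5a5 (the iodide symporter, at 8 to 26 counts) did not pass either. Slc5a6 (SMVT, uptake of biotin and pantothenate) was lower under the fold limit, with a log2 fold change of -0.48 (SE 0.08, adjusted p = 2.13e-04).

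**Figure D3:**
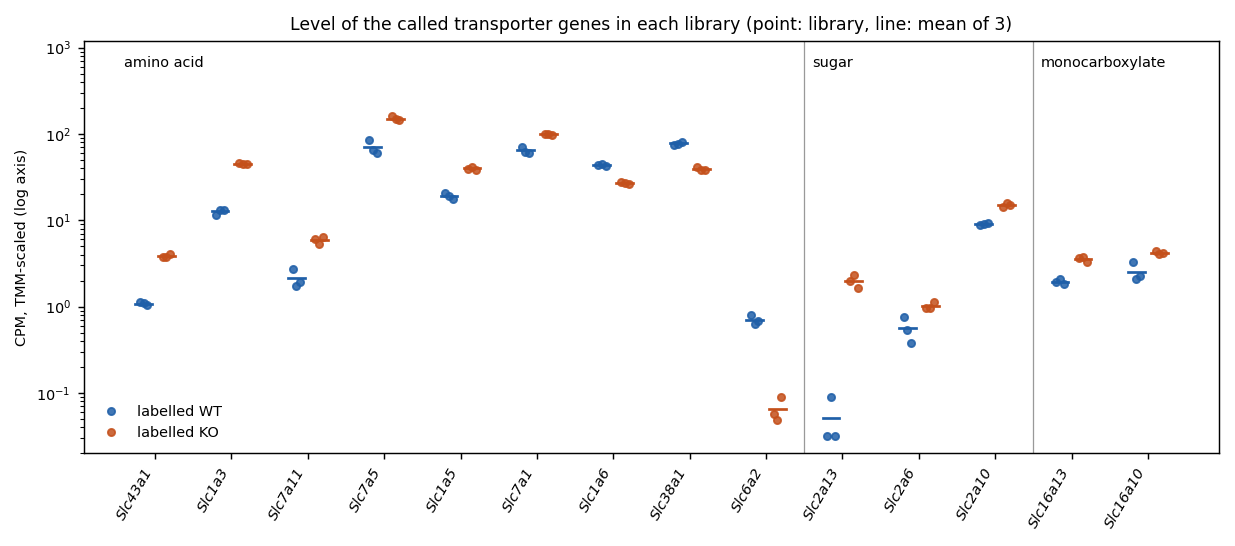
Level in CPM on a log axis of the 14 called transporter genes in each of the 6 libraries (points: libraries, short lines: means of 3, blue: labelled WT, orange: labelled KO). The points of the groups do not overlap for any of the 14, the nearest points of Slc2a6 lie at 0.766 and 0.960 CPM, and labelled WT library 1 lies above the other libraries labelled WT for Slc7a5 and Slc7a11.

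The 5 monocarboxylate genes described here passed the adjusted p, 5 higher (100%, against 29.9% of all genes) and 0 lower (against 28.8%). Of them, 2 passed the fold limit (40%, against 11.6% of all genes called higher). These differences in share, from 5 genes, were not tested. The median log2 fold change of the 5 genes was 0.51. MCT1 was nearly level: Slc16a1 had 2636, 2920 and 2936 counts under the WT label and 3325, 3928 and 3070 under the KO label, with a log2 fold change of 0.09 (SE 0.04, adjusted p = 0.0396). Over the alternative tests and settings its adjusted p ran from 0.00289 to 0.139, so its pass did not hold in all of them. The genes that rose past the fold limit carry other substrates or were at low levels. Slc16a13 (MCT13) had 60, 70 and 59 counts under the WT label and 130, 158 and 109 under the KO label (log2 fold change 0.88, SE 0.12, adjusted p = 5.07e-05). Slc16a10 (TAT1, facilitated transport of aromatic amino acids) had 102, 69 and 72 counts against 157, 168 and 137 (0.74, SE 0.15, adjusted p = 0.00103). Labelled WT library 1 was again the highest of its group, and no library labelled KO fell below it.

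Slc16a4 (MCT5) had 396, 493 and 444 counts against 659, 815 and 627, and Slc16a9 (MCT9) had 225, 247 and 232 against 386, 408 and 347. Both were higher in every library labelled KO but under the fold limit, at log2 fold changes of 0.47 (adjusted p = 3.38e-05) and 0.51 (adjusted p = 5.91e-05).

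The partners and metabolic enzymes of these carriers were read from 7 lists, and 22 of the 104 list genes tested were called (21.2%, near the 17.7% of all genes). By direction, 17.3% were called higher and 3.85% lower, against 11.6% and 6.1% of all genes. Without the fold limit 41.3% were higher and 26.0% lower, against 29.9% and 28.8%, and these differences in share were not tested. Of the MCT chaperones and lactate genes, 4 of 11 rose past the fold limit (36.4%, against 11.6% of all genes, not tested) and 0 fell. The list's median log2 fold change was 0.19, and 1 was called among genes with 10 or more counts in each library. Emb, which encodes embigin, had 2, 8 and 8 counts under the WT label and 129, 117 and 111 under the KO label (log2 fold change 4.10, SE 0.28, adjusted p = 6.16e-08). Emb was thus almost silent in every library labelled WT, and like Car9 and Car12 it passed the count filter only through the group where it was high, so these calls and the list's count are given as a description. Bsg, the main partner of MCT1, was far more abundant at 30569 to 35088 and 38004 to 48453 counts, with a log2 fold change of 0.19 (adjusted p = 1.90e-04). Car9, a cell surface carbonic anhydrase, had 0, 1 and 0 counts against 54, 67 and 61 (at least 17.8-fold higher), and Car12, another of these enzymes, had a log2 fold change of 3.08. Ldhb, the heart-type lactate dehydrogenase subunit, rose as well (2.72, adjusted p = 9.35e-08), and it is named after its values were seen, as is Ldha, which was higher by 0.16 under the fold limit.

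Of 14 genes of glucose trapping and GLUT traffic tested, 0 rose and 1 fell (7.14%, against 17.7% of all genes), with a median log2 fold change of -0.23. Without the fold limit 1 was higher and 8 lower, against 29.9% and 28.8% of all genes. The gene that fell was Hkdc1, a low-level hexokinase relative (18 to 29 against 12 to 19 counts, log2 fold change -0.70, adjusted p = 0.0354). That call rests on few reads, and 0 genes of the list were called with upper-quartile scaling, with DESeq2, or without labelled WT library 2, labelled WT library 3 or labelled KO library 2. Txnip, an arrestin that takes GLUT1 off the cell surface, had a log2 fold change of -0.38 under the fold limit (adjusted p = 1.58e-06).

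Among the 20 genes of the amino acid response driven by ATF4, 5 rose (25%, against 11.6% of all genes) and 0 fell, with a median log2 fold change of 0.32. Without the fold limit 14 were higher (70%, against 29.9%) and 2 lower (10%, against 28.8%), differences in share that were not tested. The largest changes were in Trib3, a feedback inhibitor of ATF4 (1.07, adjusted p = 2.77e-06), Chac1, which degrades glutathione (0.96, adjusted p = 8.23e-07), and Mthfd2 of mitochondrial folate metabolism (0.73, adjusted p = 3.06e-06). The other called genes were Asns and Shmt2, close to the fold limit at 0.64 and 0.61. Trib3 had 665, 500 and 461 counts under the WT label, with library 1 highest as for Slc7a5 and Slc7a11, and 1333, 1400 and 1145 under the KO label. Without labelled WT library 2, or without labelled WT library 3, 3 genes of the list were called in place of 5, and without labelled KO library 1, 4 were called. Atf4 itself was higher under the fold limit (0.36, adjusted p = 3.80e-06).

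Enzymes that use glutamine, glutamate and branched-chain amino acids held 5 genes that rose (31.2%, against 11.6% of all genes, not tested) and 0 that fell among 16 tested, with a median log2 fold change of 0.28. Bcat1, which transaminates leucine, rose by 1.41 on the log2 scale (adjusted p = 1.39e-05), Glul (glutamine synthetase) by 1.16 (adjusted p = 1.02e-07) and Pycr1, an enzyme of proline synthesis, by 0.87 (adjusted p = 2.45e-07). Glul had 208, 264 and 277 counts under the WT label and 627, 701 and 580 under the KO label, without overlap. The other called genes were Gls2 and Odc1.

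Of 12 genes for cystine and glutathione use, 2 rose and 0 fell (16.7%, near the 17.7% of all genes), with a median log2 fold change of 0.07. Without the fold limit 4 were higher (33.3%, against 29.9% of all genes) and 2 lower (16.7%, against 28.8%). The called genes were Nqo1, a textbook NRF2 target (0.94, adjusted p = 9.94e-07), and Cth, which makes cysteine from cystathionine (0.87, adjusted p = 8.94e-05). Gclc, the catalytic subunit of glutathione synthesis, had a log2 fold change of -0.25 (adjusted p = 9.73e-04), opposite in sign to Slc7a11. Of 22 genes of mTORC1 amino acid sensing, 1 rose (Castor1, an arginine sensor, 0.90, adjusted p = 3.96e-06) and 1 fell (Castor2, its relative, -0.85, adjusted p = 1.26e-09). That is 9.09% called, against 17.7% of all genes. The median was -0.12. Without the fold limit 2 were higher (9.09%, against 29.9% of all genes) and 8 lower (36.4%, against 28.8%). Of 9 genes for osmolyte and creatine handling, Ckmt1 rose (2.14, adjusted p = 1.45e-06) and Ckb and Cdo1 fell (-1.23 and -0.83), with a median of 0.05. The called share of that list was 33.3%, against 17.7% of all genes, a difference that was not tested. The call of Cdo1 was lost with DESeq2 and without labelled WT library 1. Gclc was named after its values were seen.

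**Figure D4:**
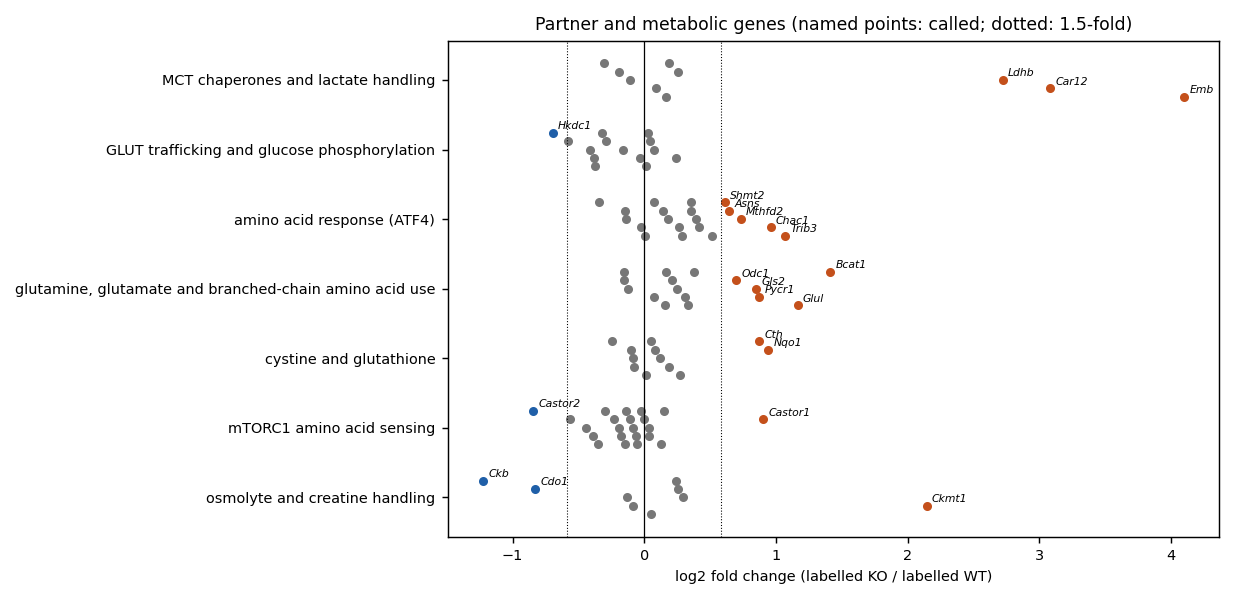
Log2 fold change (labelled KO over labelled WT) of the tested genes of the 7 partner and metabolic lists, a point for each gene, with called genes coloured and named and dotted lines at 1.5-fold. Emb at 4.10 stands farthest to the right, the GLUT list lies mostly left of 0, and Car9, whose fold is a bound, is left out.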

How the data were processed

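RNAseq of 3 libraries labelled WT and 3 labelled KO was analysed, grouped by the genotype label alone. The authors deposited raw counts per gene, and log2 CPM from voom. The submitters' processing notes name STAR 2.7.2b, featureCounts, limma and GRCm38.p6, and whether counting used strand is not given in the sources used here. Libraries held 31728420 to 33905521 counts (labelled WT) and 32781730 to 41035931 (labelled KO), so 3 counts equal 0.0720 to 0.0957 CPM after TMM scaling, a floor that covers counting error only. Of the 14831 listed genes, 1165 have no symbol and stayed outside the choice by symbol, among them 2 that GENCODE M21 names Slc7a13 and Slc5a8. Positions and exon lengths are from GENCODE M21 (GRCm38), to which all 46 members matched. Another 1 gene that the rule takes is not reported here and is left out of the members' counts, but stayed in the fit and in the counts over all genes.

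The tests used edgeR 4.0.16 (R 4.3.3) on the counts (TMM, filterByExpr, quasi-likelihood F test, Benjamini-Hochberg adjustment over 14289 genes), with a call at adjusted p under 0.05 and at least 1.5-fold. SE is the size of the log2 fold change over the square root of F. A fold is a bound where 1 group held no more than 3 counts in any library. An exact permutation test of 3 against 3 cannot give a two-sided p below 0.1. Members and gene lists were chosen with earlier results of these data known. Every called member is named, with counts for called members of at least 50 counts in each library of the higher group, the 3 leading genes per family by level, the heavy chains and opposed members of a transport system, plus up to 3 called genes per direction of each list. Counts are also given for Slc6a2, Slc2a6, Trib3 and Glul, chosen after their values were seen. Alternatives were scaling by RLE, by upper quartiles or by totals, no count filter or at least 10 counts in every library, DESeq2 1.42.0, limma-voom and limma 3.58.1 on the deposited log2 values, other fold limits, other lengths and leaving out each library.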

Additional observations from a re-analysis of the deposited data

How the results depend on the processing

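At the 1.5-fold limit, direction and call held under every alternative that could be run for 13 of the 14 called transporter genes. The exception was Slc2a6 without labelled WT library 3 (adjusted p 0.0529), and 0 of the other 29 gained a call at that limit. Slc6a2 and Slc2a13 could not be tested with at least 10 counts in every library. Under that filter 12 of 40 transporter genes were called, 10 higher and 2 lower, against 1926 of 13155 over all genes. The fold limit moved the counts by construction. Without it, 29 transporter genes were called in place of 14 (amino acid 19 in place of 9, sugar 5 in place of 3, monocarboxylate 5 in place of 2), with 8391 in place of 2531 over all genes and 70 in place of 22 over the partner lists. At 2-fold, 7 transporter genes were called (sugar 1, monocarboxylate 0), 1456 of all genes and 9 of the partner lists. With at least 10 counts in every library, 1 gene of the MCT chaperone list was called in place of 4. By adjusted p alone, Slc38a2, Slc38a10, Slc7a6, Slc6a8, Slc5a3 and Slc7a4 did not pass in the main setting but did in some alternative. Their lowest adjusted p values were 0.00528, 0.0180, 0.00800, 0.0222, 0.0248 and 0.0402. Slc6a6, Slc6a9, Slc36a4 and Slc16a1 passed in the main setting but not in every alternative. The sign turned only for transporter genes that did not pass the test in the main setting. The log2 fold change of Slc7a7 was -0.00087 with RLE scaling, -0.0018 without a count filter, -0.0013 with DESeq2, -0.0030 on the deposited log2 values and -0.0288 to 0.0246 with a library left out. With a library left out, Slc3a1 ranged from -0.640 to 0.0227, turning without labelled WT library 3, and Slc5a3 from -0.0141 to 0.248, turning without labelled WT library 1 or labelled KO library 3 (-0.00998 and -0.0141). No scaling moved the median of all genes by more than 0.0569 on the log2 scale. No paired analysis was possible because the labels give no replicate numbers. At this depth, Slc2a6, Slc3a1, Slc5a5 and Slc6a2 rest on fewer than 50 counts in every library.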

Other observations

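Genes without a symbol in the deposited table include 2 that GENCODE M21 names as transporters of the same families. Slc7a13, an amino acid light chain best known from kidney, had 10, 22 and 8 counts under the WT label and 2, 5 and 4 under the KO label. Slc5a8, a sodium-coupled monocarboxylate transporter, had 7, 8 and 4 counts against 18, 13 and 9. The groups did not overlap in either gene, as for 64.2% of all genes tested, at levels where few reads decide the values.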
